A study of Mus musculus with 10 samples.

Results

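Kallikreins are secreted serine proteases. In the epidermis they are made as inactive precursors by keratinocytes leaving the basal layer, and they cut the protein bridges, the corneodesmosomes, that hold the outermost cells together, so that these cells can be shed. Described here are 7 members of the family, Klk5, Klk6, Klk7, Klk8, Klk10, Klk11 and Klk13, among 26 kallikrein genes listed in the files, in which 27998 genes were listed at E16.5 and 32285 at E15.5 and E17.5. They were chosen by their measured level in basal and suprabasal cells of these libraries, by stage and group, so their levels are given as a description, without a test. A UMI, or unique molecular identifier, marks 1 captured RNA molecule, and a level is given as CPM, the UMIs of a gene per 1000000 UMIs of the same cells.

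The study asked what the loss of MOF, the acetyltransferase of lysine 16 of histone H4, and of QPC, a subunit of respiratory complex III, does to the developing skin. Single cells of total mouse back skin were profiled in 10 libraries. At E15.5 there were 2 controls (numbered 2 and 3) and 2 MOF cKO libraries (5 and 6) with the genotype MOFfl/fl/K14Cre, at E16.5 there were 2 controls and 2 MOF cKO libraries (1 and 2 each) of the same genotypes, and at E17.5 a single QPC cKO library (QPCfl/fl/K14Cre) stood beside a single control. The controls were labelled Control with no alleles given. K14Cre deletes in the cells of the epidermis and of other epithelia that express Krt14, so the dermis and its immune cells were left with floxed but undeleted alleles. Each stage was made with a kit of its own (v3.1, v2 and v3 of the 3′ chemistry), so stage and kit cannot be told apart. The MOF cKO embryo numbered 6 at E15.5 was a mosaic, with H4K16ac kept in part of its epidermis by the staining described for these samples. The study worked with pairs of embryos and littermate controls, but which number pairs with which is not given here, so p-values measure the spread between libraries.

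The limits on a cell were those of the study's methods, more than 1000 but fewer than 6000 genes and less than 10% mitochondrial UMIs. Basal cells were those with at least 10 UMIs of Krt5 and Krt14 and under 10 of Krt1 and Krt10, and suprabasal cells those with at least 20 UMIs of Krt1 and Krt10. The upper limit on genes left out 1447 cells within these keratin limits in the E17.5 control and 1038 in QPC cKO, where 2997 and 1138 were kept. It left out 81 to 348 per library at E15.5 and 0 to 12 at E16.5. Libraries held 13609345 to 203392303 UMIs and 716 to 10653 kept cells, and pairs of libraries shared at most 36 cell barcodes. The E16.5 MOF cKO libraries held only 21 and 22 basal and 9 and 13 suprabasal cells, against 239 and 464 basal and 31 and 66 suprabasal cells in their controls. In every other library there were at least 901 basal and 72 suprabasal cells. The genes of the fibroblast list (Col1a1, Col1a2, Col3a1, Dcn and Lum) reached 901 to 30629 CPM in basal cells. Kat8, the gene of MOF, was read at 13.0 and 13.7 CPM in E15.5 control basal cells and at 13.4 and 10.3 in MOF cKO. At E16.5 it was read at 16.4 and 14.9 in control and 8.31 and 4.51 in MOF cKO, from 3 and 2 UMIs. In fibroblast-gated cells, outside the K14Cre epithelium, Kat8 was at 9.30 and 9.73 in control and 6.84 and 6.07 in MOF cKO at E15.5, and at 10.6 and 7.99 against 2.62 and 5.35 at E16.5. The floxed exons of Mof are not given in the sources used here, so a 3′ tag may lie outside the deleted part and then checks nothing. Uqcrq, the gene of QPC, was at 103 and 45.7 CPM in the E17.5 control and QPC cKO basal cells.

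Among the members, Klk5 has trypsin-like activity, can activate itself and activates the precursor of Klk7, which has chymotrypsin-like activity. Klk5 cuts the corneodesmosome proteins corneodesmosin, desmocollin 1 and desmoglein 1, and Klk7 cuts corneodesmosin and desmocollin 1. Klk8 (neuropsin), Klk6 (neurosin), Klk11 and Klk13 are further proteases of the skin surface, and Klk10 is a relative with little known activity. LEKTI, the product of Spink5, holds Klk5 and Klk7 back until the cornified layer. Their genes lie side by side on the plus strand of chromosome 7, within 138.615 kb (chr7:43712567-43851181, build GRCm38, GENCODE annotation), in the order Klk13, Klk11, Klk10, Klk8, Klk7, Klk6 and Klk5, with Klk12 and Klk9 in between. The members held 18231 of the 18715 UMIs of all kallikrein genes in the gated cells, or 97.4%. Klk9, with 452 UMIs, was the highest gene outside the selection, and Klk6, with 80, the lowest inside it.

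**Figure D1:**
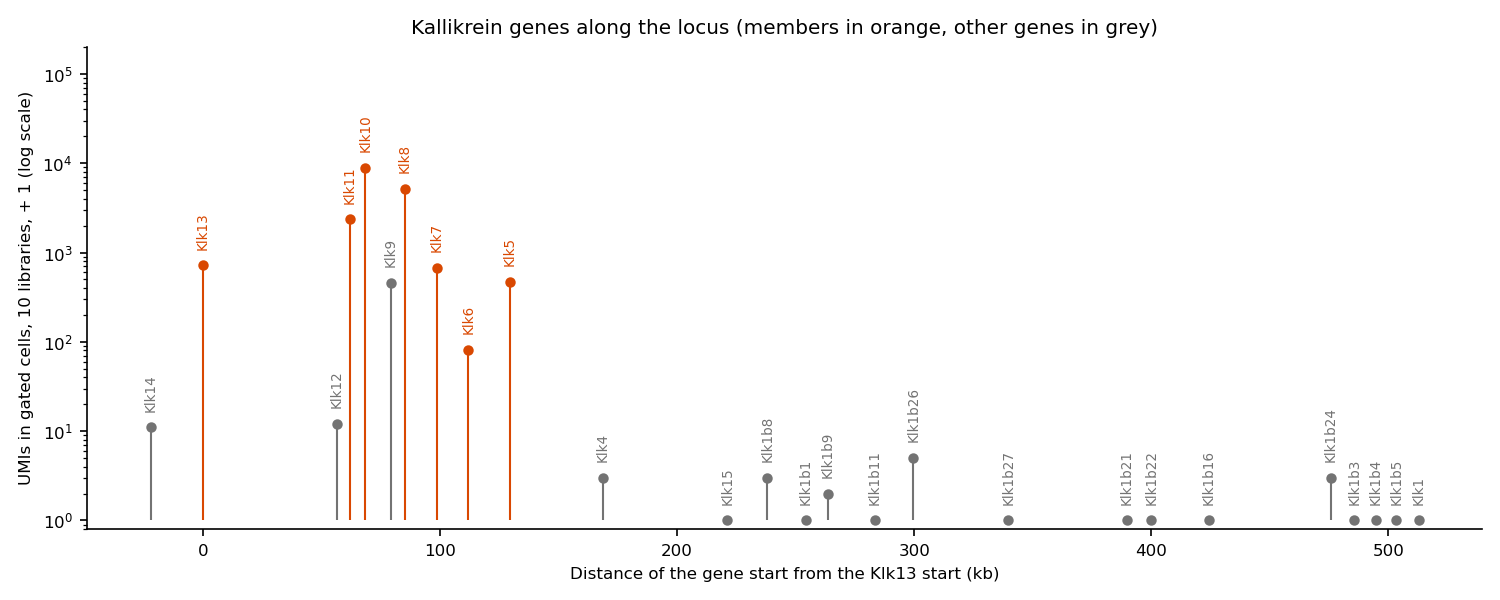
UMIs of each kallikrein gene plus 1, summed over the gated cells of all 10 libraries (log scale), against the distance of its start from that of Klk13 in kb. The 7 members hold 97.4% of the UMIs, and Klk9, between Klk10 and Klk8, holds 452.

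The stretches just before the starts of Klk13, Klk8, Klk7 and Klk6 are shown, for genes whose levels differed between groups or cell states below. The windows of Klk5, Klk10 and Klk11 and a second window of Klk6 are not printed. Those shown come from RefSeq promoter windows of GRCm38.p6, on the plus strand of chromosome 7, each ending at the last base before the annotated gene. The Klk6 window ran past that base and was cut to 205 bases, which leaves out a reverse CACCC match in its last bases. Capitals mark CACCC, the letters that Krüppel-like factors such as Klf4 are known to bind, and GGGCGG, those of Sp factors, on either strand, so that the reverse complement is also in capitals.

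Klk13, chr7:43712317-43712566: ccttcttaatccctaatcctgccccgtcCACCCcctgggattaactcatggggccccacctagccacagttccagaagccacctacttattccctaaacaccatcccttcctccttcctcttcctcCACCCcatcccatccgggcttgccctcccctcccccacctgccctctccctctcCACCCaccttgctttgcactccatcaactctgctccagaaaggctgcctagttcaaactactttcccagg
Klk8, chr7:43797327-43797576: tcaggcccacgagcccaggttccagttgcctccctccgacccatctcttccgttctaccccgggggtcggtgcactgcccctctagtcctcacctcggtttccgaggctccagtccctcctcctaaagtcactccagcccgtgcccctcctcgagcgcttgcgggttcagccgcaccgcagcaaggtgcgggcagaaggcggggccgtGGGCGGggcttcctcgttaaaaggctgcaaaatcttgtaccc
Klk7, chr7:43811044-43811293: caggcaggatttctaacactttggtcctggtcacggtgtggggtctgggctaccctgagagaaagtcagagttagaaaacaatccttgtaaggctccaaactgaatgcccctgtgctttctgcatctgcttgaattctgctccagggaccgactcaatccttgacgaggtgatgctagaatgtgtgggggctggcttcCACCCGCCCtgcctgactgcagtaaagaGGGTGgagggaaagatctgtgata
Klk6, chr7:43824294-43824498: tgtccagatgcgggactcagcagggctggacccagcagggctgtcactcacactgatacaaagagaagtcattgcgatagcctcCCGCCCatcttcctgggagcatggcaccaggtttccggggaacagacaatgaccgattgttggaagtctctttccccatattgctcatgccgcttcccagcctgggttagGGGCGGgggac

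The Klk13 stretch held CACCC at 3 places, and that of Klk8 held GGGCGG once, with its first base 42 bases before the start. In the Klk7 stretch the forward CACCC overlapped a reverse GGGCGG. Over the 250 bases before each RefSeq start, CACCC was in 6 of 9 windows of the members and in 52.0% of all 32851 windows, and GGGCGG was in 4 of 9 and in 32.7%. The AP-1 letters TGANTCA were in none of the 9 and in 6.75% of all windows. For the grainyhead letters AACCNGTT these were 0 of 9 and 1.79%. For the TATA box, TATAAA, they were 0 of 9 and 12.4%. Both strands were searched. These matches describe letters only, and none says whether a factor binds.

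In the control epidermis the members fell into different patterns between basal and suprabasal cells. Klk10 had no common direction between them over all gated cells. It was read at 36.4 and 25.3 CPM in basal cells of the E15.5 controls and at 30.4 and 13.7 in suprabasal cells, and at E16.5 at 37.5 and 95.7 in basal and 36.2 and 42.4 in suprabasal cells. At E17.5 it was at 26.3 in basal and 40.5 in suprabasal cells. Below a collagen share of 0.2% of UMIs (Col1a1, Col1a2 and Col3a1), a limit set after the values were seen, Klk10 was higher in basal cells of every control. There it was at 37.8 and 26.2 in basal against 32.8 and 13.8 in suprabasal cells at E15.5. At E16.5 it was at 59.3 and 102 against 35.5 and 43.9, and at E17.5 at 47.7 against 40.6. In E16.5 control 2, 1 basal-gated cell with 546 UMIs of the periderm keratins Krt4, Krt8, Krt18 and Krt19 held 251 of the 649 Klk10 UMIs. Klk8 was higher in suprabasal than in basal cells in every control. It was at 19.1 and 20.3 CPM in basal and 39.7 and 51.8 in suprabasal cells at E15.5, at 11.0 and 18.6 against 141 and 122 at E16.5, and at 10.7 against 40.9 at E17.5.

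Klk5, Klk7 and Klk13 were low in control basal cells, where no value was above 1.75 CPM. In suprabasal cells of the controls Klk13 was at 11.6 and 10.9 at E15.5, 30.2 and 55.7 at E16.5 and 23.7 at E17.5. Klk5 was at 5.95 and 4.60, then 62.3 and 113, then 1.60. Klk7 was at 0.66 and 1.94, then 308 and 174, then 3.41. These 2 genes of the desquamation cascade were thus high at E16.5 alone, the stage whose suprabasal cells held most RNA of the granular list (Lor, Ivl, Flg, Flg2 and Hrnr), at 41534 and 26238 CPM against 2665 and 699 at E15.5 and 21 at E17.5. At E17.5 only 1 of the 190 control suprabasal cells held at least 10 Lor UMIs. The level of Klk5 and Klk7 in Lor-rich cells could thus not be read at that stage. Klk11 was at 5.82 and 4.90 in basal and 10.6 and 15.6 in suprabasal cells at E15.5, and at 9.24 and 12.8 against 48.2 and 30.3 at E16.5. Klk6 had no UMI in any control cell of either gate.

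Cells gated as fibroblasts, which are not known to make these proteases, gave the background. No member other than Klk8 was above 1.6 CPM there, and Klk8 was at 1.3 to 3.0. In E16.5 control 2, 47.0% of 66 suprabasal cells held a Klk8 UMI (95% Wilson interval 35.4 to 58.8%, median depth 11541.5 UMIs), against 1.18% of 1531 fibroblast-gated cells (0.745 to 1.85%, median depth 9145 UMIs). For Klk7 these shares were 22.7% (14.3 to 34.2%) and 0.392% (0.180 to 0.852%). Such intervals cover counting error only. The low basal values of Klk5 and Klk13 lay above the fibroblast-gated cells of the same library in all 5 controls. For Klk7 the gap was small at E16.5, with 0.89 and 1.03 CPM in basal against 0.78 and 0.39 in fibroblast-gated cells.

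**Figure D2:**
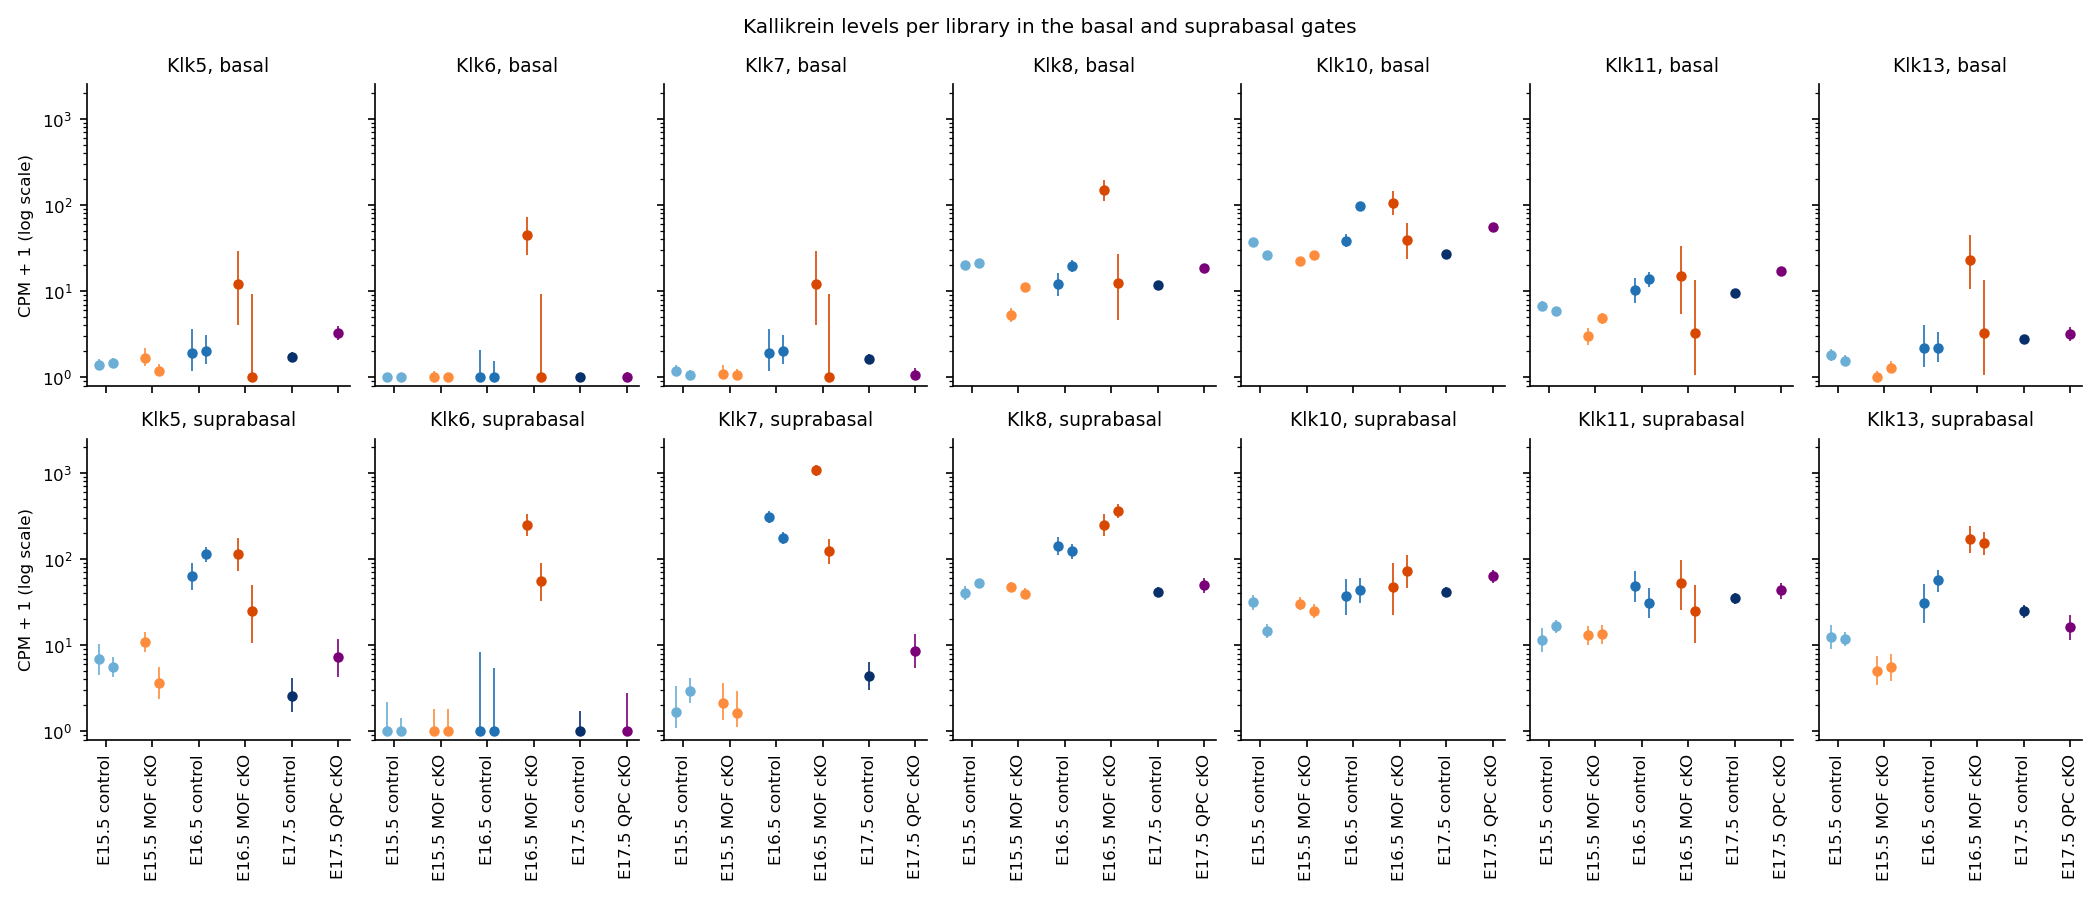
Level of each member (CPM plus 1, log scale) in basal and suprabasal cells of every library, with a point for each library and bars for exact 95% Poisson intervals (counting error only). The E16.5 suprabasal points of every member but Klk6 lie above those of E15.5, which was made with another kit. Klk6 points above 0 occur in E16.5 MOF cKO alone.

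Within the suprabasal gate the members differed by the level of Lor, the gene of loricrin, the main protein of the cornified envelope, which marks granular cells. The E16.5 controls held 8 and 18 suprabasal cells with at least 10 Lor UMIs. All 153 and 144 Klk7 UMIs were in these cells, at 1149 and 649 CPM, and none in the 23 and 48 cells below that limit. Klk5 was at 218 and 405 in the Lor-high cells and at 5.5 and 5.0 in the others. Klk8 was at 315 and 356 against 76.9 and 36.4. Klk10 went the other way, at 15.02 and 4.5 in Lor-high cells, from 2 and 1 UMIs, and 43.9 and 56.3 in the others. Klk13 did not part by Lor in control 1 (30.0 against 30.2), and was at 113 against 34.8 in control 2.

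Few cells carried these values. In E16.5 control 1, a single cell of 51989 UMIs, 7676 of them Lor, held 123 of the 153 Klk7 UMIs and 84 of the 90 Klk9 UMIs. In control 2, a cell of 44682 UMIs with 3984 Lor UMIs held 105 Klk7 and 56 Klk5 UMIs. At E15.5, Lor-high cells numbered 11 and 20 (control) and 26 and 24 (MOF cKO). Klk5 was at 127 and 67.1 CPM in those of the controls (15 and 28 UMIs) and at 46.8 and 34.9 in those of MOF cKO (31 and 12 UMIs). Klk8 was at 161 and 146 against 125 and 98.8. Klk13 was at 25.5 and 26.4 (3 and 11 UMIs) against 10.6 and 11.6 (7 and 4 UMIs). Klk10 was at 51.0 and 4.8 against 43.8 and 5.8, and Klk11 at 16.997 and 14.4 against 15.1 and 34.9. These 2 genes overlapped between the groups. Klk7 was low in the Lor-high cells of E15.5, at 0 and 33.5 in control and 1.5 and 2.9 in MOF cKO.

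**Figure D3:**
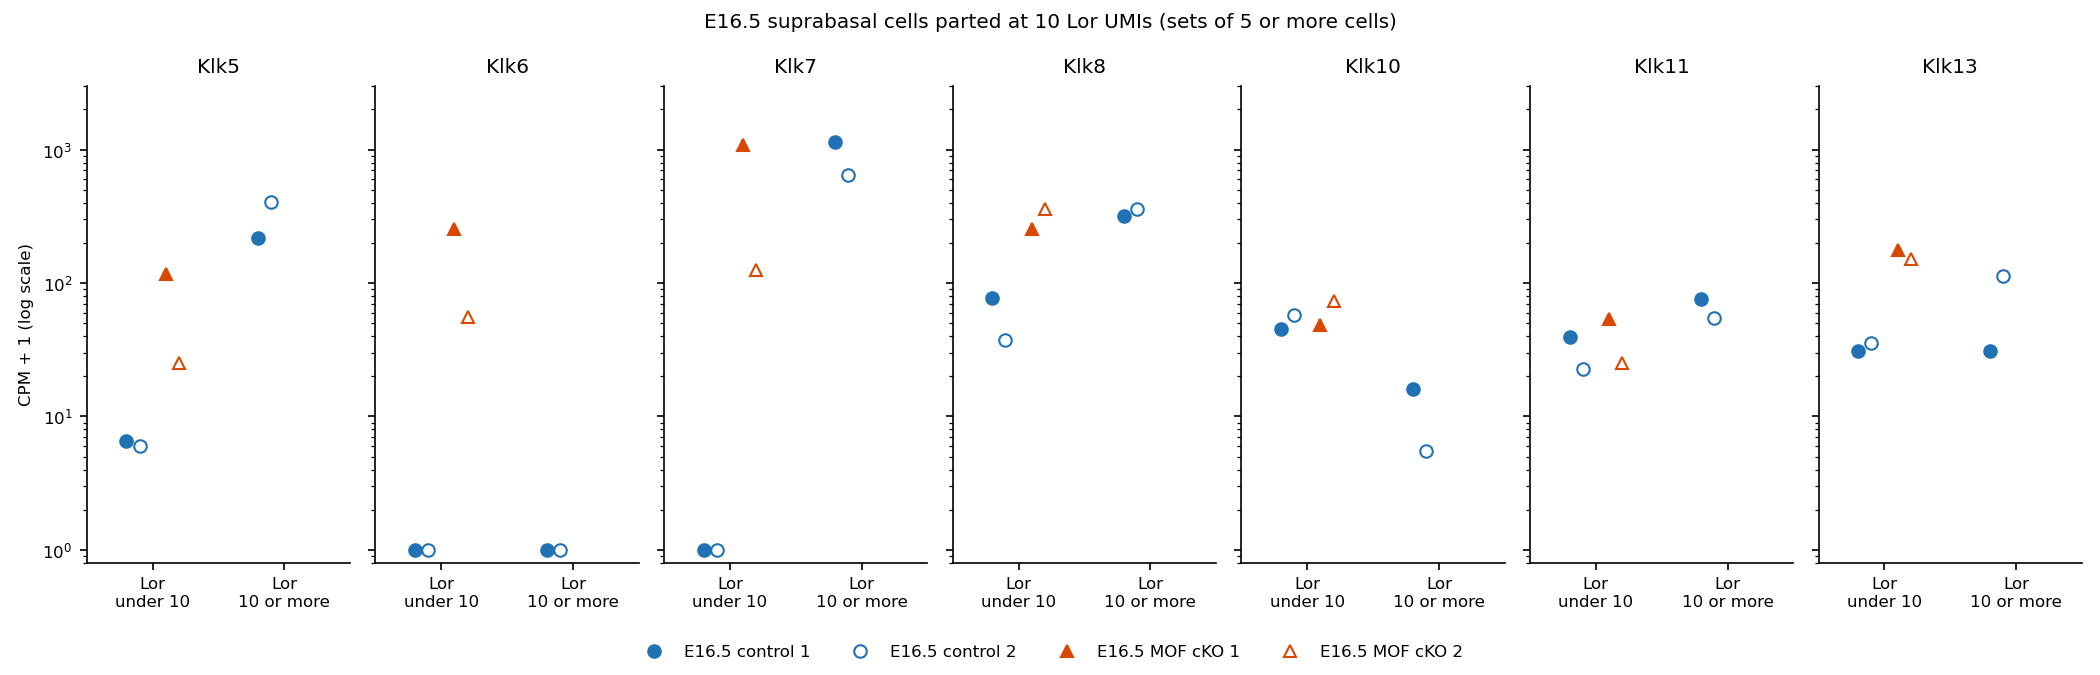
Levels of the members (CPM plus 1, log scale) in suprabasal cells with under 10 and with at least 10 Lor UMIs, in each E16.5 library with at least 5 such cells. In the E16.5 controls Klk7 is at 0 below the limit and at 1149 and 649 above it, whereas MOF cKO Lor-low cells reach 1087 and 123.

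At E15.5 several members were lower in MOF cKO than in control basal cells. The basal marker list was lower in the same cells as well, at 15931 and 13773 CPM in control against 6529 and 12506, as was the suprabasal list, at 967 and 969 against 546 and 731, while the fibroblast list was at 1893 and 1868 against 2784 and 2409. Their part in the members' levels was not tested. Klk8 was at 19.1 and 20.3 CPM in control against 4.28 and 10.2 in MOF cKO (log2 fold change −1.34 ± 0.33, SE, from the edgeR fit). Klk11 was at 5.82 and 4.90 against 1.98 and 3.85 (−0.75 ± 0.32). Klk13, the lowest of them, was at 0.81 and 0.56 against 0 and 0.27 (−2.02 ± 0.87). In these 3 genes both MOF cKO libraries lay below both controls. Klk10, at 36.4 and 25.3 against 21.4 and 25.4 (−0.25 ± 0.20), and Klk5, at 0.38 and 0.46 against 0.70 and 0.20, overlapped between the groups. The 7 members together were at 57.1 ± 7.85 CPM in control, and 34.2 ± 8.14 with MOF lost (SD, 2 libraries each), a log2 ratio of −0.72 with a pseudocount of 1. Without the mosaic MOF cKO 6 this ratio was −0.98, that of Klk8 −1.97 (−1.33 with both libraries) and that of Klk11 −1.09 (−0.70). Of the 5 members that passed the filter on low counts, 3 were lower without overlap and 0 higher. Over all 14364 genes 32.9% were lower without overlap and 17.7% higher, and since the members were chosen on this contrast nothing is read from their count.

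In E15.5 suprabasal cells Klk13 stood apart from the others. It was at 11.6 and 10.9 CPM in control and 4.09 and 4.57 in MOF cKO (log2 fold change −1.27 ± 0.32), and the groups did not overlap. In the same cells the fibroblast list was at 1016 and 683 in control against 2154 and 1918, and the basal list at 14873 and 8843 against 3953 and 8135. Their part in the level of Klk13 was not tested. Klk8 was at 39.7 and 51.8 against 46.1 and 38.7 (−0.00 ± 0.26), Klk11 at 10.6 and 15.6 against 12.0 and 12.4 (−0.03 ± 0.31), and Klk10 at 30.4 and 13.7 against 29.3 and 23.9 (0.44 ± 0.42). These 3 overlapped, as did Klk5, at 5.95 and 4.60 against 9.99 and 2.61, and the sum of all members, at 98.8 and 98.5 against 103 and 82.8. Klk7 was at 0.66 and 1.94 against 1.13 and 0.65, and Klk6 had no UMI in any gated cell of E15.5. Of the 5 members that passed the filter 1 was lower without overlap and 0 were higher, where 21.8% and 16.7% of all 10819 genes were.

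At E16.5, in the 9 and 13 suprabasal cells of MOF cKO, 4 members were higher than in the controls. Klk6 had no UMI in the controls, which allows up to 2.27 CPM over the group (3 counts), and was at 249 and 54.8 in MOF cKO, at least 67.1-fold higher. This bound was 41.9-fold without control 1, 25.2-fold without control 2, 24.2-fold without MOF cKO 1, 110-fold without MOF cKO 2 and 34.6-fold without the cell with the most Klk6 UMIs of each library. Klk13 was at 30.2 and 55.7 in control and 171 and 151 in MOF cKO (log2 fold change 2.36 ± 0.47). Klk8 was at 141 and 122 against 249 and 360 (1.70 ± 0.36). Both genes were thus higher in each MOF cKO library than in each control, as was Klk10, at 36.2 and 42.4 against 46.7 and 71.9 (1.07 ± 0.42).

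The other members overlapped between the groups at E16.5. Klk7 was at 308 and 174 CPM in control and 1064 and 123 in MOF cKO (1.91 ± 0.92), so the 2 MOF cKO libraries lay on either side of the controls. Klk5 was at 62.3 and 113 against 114 and 24.0 (0.09 ± 0.74), and Klk11 at 48.2 and 30.3 against 51.9 and 24.0 (0.41 ± 0.57), and without TMM scaling the log2 ratios of these 2 were −0.34 and −0.048. The sum was 581 ± 62.0 CPM in control against 1378 ± 805 with MOF lost (SD, 2 libraries each), a log2 ratio of 1.24. Of 7 members 4 were higher without overlap, where 16.1% of all 4266 genes were, and 0 lower, where 49.6% were. Klk6 passed the filter on low counts through MOF cKO alone, and since the members were chosen on this contrast nothing is read from the count. The fold changes are relative to TMM scaling. With library totals the median of all genes was at −0.53 in suprabasal and −0.63 in basal cells of E16.5 on the log2 scale, against −0.055 and −0.11 under TMM. At E15.5 it was −0.15 in basal cells, against −0.012.

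Single cells weighed heavily on these values. In MOF cKO 1 a suprabasal cell of 36979 UMIs held 164 of the 205 Klk7 and 30 of the 48 Klk6 UMIs, with 4133 UMIs of Krt6a, Krt6b and Krt16 and no Lor UMI. In MOF cKO 2 a suprabasal cell held 82 of 105 Klk8, 32 of 44 Klk13 and 15 of 21 Klk10 UMIs. When the cell with the most UMIs of a gene was left out of every library, Klk6 remained at 116 and 41.3 CPM, Klk13 at 27.5 and 52.1 in control against 135 and 49.6 in MOF cKO, and Klk8 at 98.8 and 90.9 against 199 and 95.1. Klk8 and Klk13 then overlapped between the groups, and Klk6 alone of the 4 stayed apart. Klk10, at 31.1 and 37.1 against 33.8 and 24.8, overlapped too and had a log2 ratio of −0.21 where it had been 0.58.

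The basal gate of E16.5 MOF cKO gave values of 21 and 22 cells. Klk8 was at 11.0 and 18.6 CPM in control and at 147 and 11.3 in MOF cKO. Klk10 was at 37.5 and 95.7 against 105 and 38.3, and Klk11 at 9.24 and 12.8 against 13.9 and 2.26. All 3 overlapped between groups, so 0 of the 3 members that passed the filter were apart, where 10.6% of all 9454 genes were higher and 51.5% lower without overlap. A single cell of MOF cKO 1 held all 16 Klk6 UMIs and 44 of 53 Klk8 UMIs of that library's basal cells. Of the control basal cells 31.0% and 4.96% held at least 0.2% collagen UMIs, and 0% of those of MOF cKO. Below that share Klk10 was at 59.3 and 102 in control against 105 and 38.3. Its log2 ratio turned from 0.11 to −0.16.

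Of the members that were higher in E16.5 MOF cKO, Klk6, Klk8 and Klk13 were read mostly in cells with keratins of stressed and wounded epidermis, and Klk10 was not. Of the gated cells of the 2 MOF cKO libraries, 18 of 30 and 13 of 35 held at least 50 UMIs of Krt6a, Krt6b and Krt16, against 0 and 1 in the controls. This limit was set after the values were seen. The 1 control cell above it was the cell with 546 UMIs of periderm keratins named above. In the MOF cKO cells above the limit Klk8 was at 290 and 371 CPM, and in those below it at 13.9 and 4.5, from 3 and 2 UMIs. Klk6 (190 and 54.9), Klk7 (619 and 124), Klk13 (121 and 155) and Klk5 (77.0 and 24.0) were at 0 below the limit in both libraries. Both gates were pooled here, so this split was not told apart from that between basal and suprabasal cells. The cells below the limit held only 215779 and 444044 UMIs. In E16.5 control basal cells Klk5, Klk7 and Klk13 averaged 0.96, 0.96 and 1.19 CPM, a level at which so few UMIs would hold almost none. Klk10 was present on both sides, at 85.9 and 58.4 above and 83.4 and 47.3 below. Every Klk6-positive cell, 6 and 4 in number, held at least 490 and 864 UMIs of these keratins.

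Lor and the granular list moved in the other direction. The granular list was at 550 and 209 CPM in MOF cKO suprabasal cells against 41534 and 26238 in control. The list of stress keratins (with Krt17) was at 78227 and 41170 against 1644 and 1156. The MOF cKO libraries held 1 and 0 suprabasal cells with at least 10 Lor UMIs, and the 1 cell held no UMI of any member. Klk7 in MOF cKO, at 1087 and 123 CPM, was thus read in Lor-low cells, where the controls had none. The part of the stress keratin cells in the levels above was not tested.

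**Figure D4:**
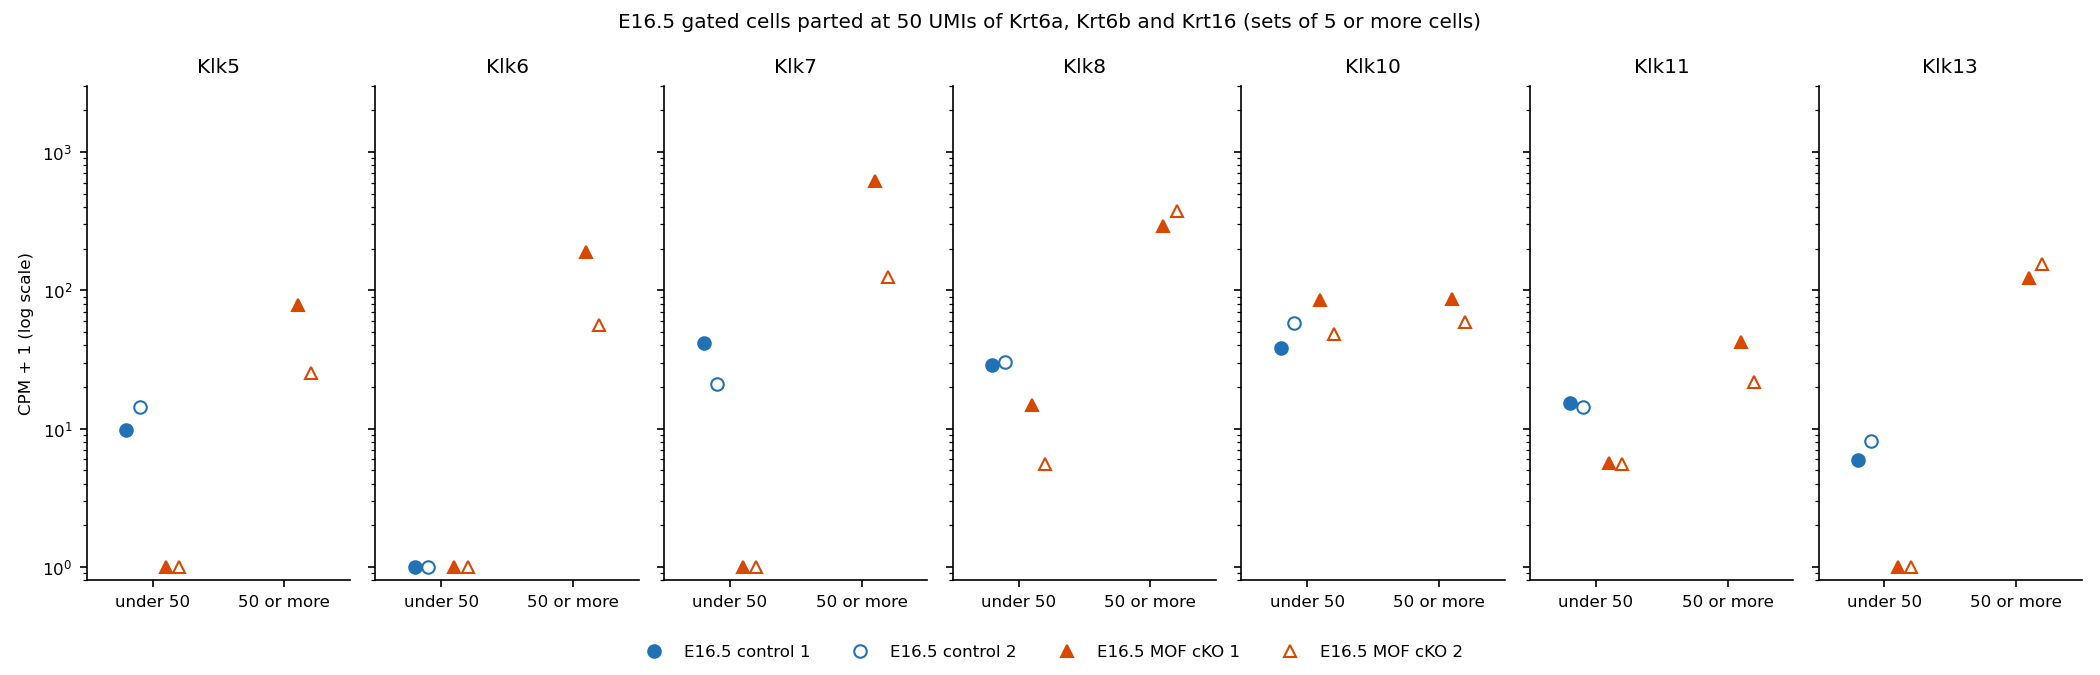
Levels of the members (CPM plus 1, log scale) in gated cells with under 50 and with at least 50 UMIs of Krt6a, Krt6b and Krt16, in each E16.5 library with at least 5 such cells. In MOF cKO, Klk5, Klk6, Klk7 and Klk13 are at 0 below the limit, where few UMIs were read, and Klk10 is on both sides.

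At E15.5, MOF cKO 5 and 6 held 40 and 6 gated cells above the limit, with at most 1688 and 204 UMIs of these keratins in a cell, and none had a Klk6 UMI. In those of MOF cKO 5, Klk8 was at 98.0, Klk10 at 54.3, Klk5 at 13.4 and Klk13 at 11.6 CPM. In the 6 of MOF cKO 6, Klk8 was at 37.8 and Klk10 at 12.6, from 6 and 2 UMIs, and Klk5 and Klk13 were at 0. At E17.5, 14 control and 9 QPC cKO cells lay above the limit, with no UMI of Klk5, Klk6 or Klk7. No cell there held more than 190 (control) or 370 (QPC cKO) UMIs of these keratins, fewer than any Klk6-positive cell of E16.5.

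At E17.5, 1 control and 1 QPC cKO library could be set side by side, with no replicate and no test. In basal cells Klk10 was at 26.3 CPM (95% exact Poisson interval 25.1 to 27.5) in control and 54.2 (51.4 to 57.1) in QPC cKO. Klk8 was at 10.7 (9.97 to 11.6) and 17.3 (15.8 to 19.0), and Klk11 at 8.57 (7.88 to 9.30) and 16.3 (14.8 to 18.0). Klk5, at 0.71 against 2.27, and Klk7, at 0.63 against 0.08, were low in both. Of the control basal cells 45.8% and of those of QPC cKO 9.8% held at least 0.2% collagen UMIs (Col1a1, Col1a2 and Col3a1). In cells below that share, a limit set after the values were seen, Klk8 was at 18.6 and 18.8, Klk11 at 15.2 and 17.8 and Klk10 at 47.7 and 59.5. The sum of the members was 87.1 against 101 there, and 48.7 against 92.4 in all basal cells.

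In E17.5 suprabasal cells the members came to 144 CPM (134 to 155) in control and 182 (164 to 201) in QPC cKO. Klk10 was at 40.5 (35.1 to 46.5) against 61.8 (51.6 to 73.4), and Klk5 at 1.60 (0.693 to 3.16) against 6.22 (3.31 to 10.6), from 8 and 13 UMIs. These intervals cover counting error only and hold no spread between embryos. Klk8 was at 40.9 and 48.8, Klk11 at 34.3 and 42.1, Klk13 at 23.7 and 15.3 and Klk7 at 3.41 and 7.66. Klk6 had no UMI in either library. With a limit of 5% mitochondrial UMIs the log2 ratio of the sum turned from 0.33 to −0.080, that of Klk5 from 1.47 to −0.53 and that of Klk7 from 0.97 to −2.46. With no upper limit on genes per cell that of Klk7 was −0.11.

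The proteins that act with the kallikreins were tested over all genes with the edgeR quasi-likelihood test and Benjamini-Hochberg adjustment. In all, 23 genes formed 3 lists, of 6 inhibitors, 8 other proteases and 9 genes of substrates and the receptor Par2. At E15.5, edgeR called none of them, of 3, 4 and 6 tested in basal and 4, 4 and 6 in suprabasal cells, nor any other gene (0% of 14364 and 0% of 10819). Leaving out either MOF cKO library raised the number of genes called in both gates, most without the mosaic MOF cKO 6. Such a fit has 1 MOF cKO library, whose spread is taken from the controls, so its calls are not read as an effect of MOF. At an unadjusted p under 0.05 the lists gave 2, 0 and 2 genes in basal and 1, 0 and 0 in suprabasal cells, where 9.11% and 7.73% of all genes were under it. DESeq2 called Spink5 higher and Dsg1b lower in basal cells, among 66 genes higher and 54 lower of 13631, and none of the lists in suprabasal cells.

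Corneodesmosin was the one substrate that changed in the edgeR test. Its gene Cdsn was at 255 and 206 CPM in E16.5 control suprabasal cells and 15.6 and 10.3 in MOF cKO, a log2 fold change of −3.69 ± 0.50 (SE; edgeR adjusted p = 0.0173). It was 1 of the 29 genes of 4266 tested that fell (0.68%), where 143 rose (3.35%). With library totals in place of TMM 141 fell and 121 rose. Without MOF cKO replicate 1 or 2 the edgeR adjusted p of Cdsn was 0.0583 and 0.0588, and with collagen under 10 UMIs per cell its log2 fold change was −1.04 (edgeR adjusted p = 0.291). Collagen under 10 UMIs left only 4 and 7 suprabasal cells in the MOF cKO libraries. With collagen under 0.2% of UMIs, a limit set after the values were seen, the log2 fold change of Cdsn was −3.81 (edgeR adjusted p = 0.0171). The granular list was at 41534 and 26238 CPM in the control and 550 and 209 in the MOF cKO libraries of this comparison, and its part in the level of Cdsn was not tested. Dsg1b, a mouse desmoglein 1, was at 10.1 and 12.1 against 176 and 41.1 (3.72 ± 0.81, edgeR adjusted p = 0.0511), and was called higher by DESeq2, among 161 genes higher of 4638. Its edgeR adjusted p was 0.0429 with library totals, 2.4e-07 with no filter on low counts and 0.000545 to 0.230 when a library was left out, under 0.05 except without MOF cKO replicate 1. Of the 5 genes of the list of substrates and the receptor tested there 1 fell, and their median log2 fold change was −0.37 beside −0.055 over all genes.

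After the filter on low counts no inhibitor passed the edgeR test at either stage with both libraries of each group. Spink5 was at 5.0 and 4.8 CPM in E15.5 control suprabasal cells and at 83.3 and 12.2 in MOF cKO (log2 fold change 3.50 ± 0.98, edgeR adjusted p = 0.631). In basal cells it was at 0.50 and 0.30 against 3.9 and 1.1 (2.83 ± 0.84, edgeR adjusted p = 0.508). Without the mosaic MOF cKO replicate 6 the log2 fold change of Spink5 was 3.58 in basal and 4.34 in suprabasal cells, with MOF cKO left at 1 library. Leaving out 1 library gave log2 fold changes from 1.24 to 4.34 in suprabasal cells, the lowest without MOF cKO replicate 5. With no filter on low counts the suprabasal edgeR adjusted p was 5.8e-25, against 0.423 by DESeq2. MOF cKO libraries as far apart as 83.3 and 12.2 cannot carry so small a value. Serpina12, an inhibitor of Klk7 known as vaspin, was at 28.1 and 43.6 in E16.5 control suprabasal cells and 5.2 and 3.4 in MOF cKO (−2.64 ± 0.79, edgeR adjusted p = 0.107, and 0.0410 with no filter on low counts). Over the 4 inhibitors tested there the median was 0.50, 0 were called and 1 had an unadjusted p under 0.05, as did 25.9% of all genes in this comparison.

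Among the other proteases St14, the gene of matriptase, which can activate Klk5 and Klk7 precursors, was at 14.1 and 13.3 CPM in E16.5 control suprabasal cells and 36.3 and 27.4 in MOF cKO (1.64 ± 0.50, edgeR adjusted p = 0.111). The 3 proteases tested there had a median of 1.35, 0 were called, 2 had an unadjusted p under 0.05 (25.9% of all genes did), and DESeq2 called none. In E16.5 basal cells edgeR called 0 of the 3 inhibitors, 2 proteases and 4 genes of the list of substrates and the receptor tested, while 0.243% of 9454 genes rose and 0% fell. The lists gave 0, 1 and 1 gene at an unadjusted p under 0.05, where 20.3% of all genes were under it, and DESeq2 called Tmprss4 higher, among 265 genes higher of 10849. F2rl1, the gene of Par2, the receptor that Klk5 can activate, was at 8.3 and 9.0 in control and 22.2 and 27.1 in MOF cKO basal cells (1.99 ± 0.44, edgeR adjusted p = 0.121, and 0.0216 with no filter on low counts).

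Of the kallikreins outside the selection, 11 of 19 had no UMI in the gated cells, 7 had under 20 and Klk9 had 452. Klk9 was at 181 and 3.63 CPM in E16.5 control suprabasal cells and 104 and 20.6 in MOF cKO. The first value came almost wholly from the single Lor-rich cell named above, and edgeR did not call the gene in either of the 2 comparisons in which it could be tested.

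Across the 20 points of 10 libraries and 2 gates, the levels of Klk8 and Klk13 had a Pearson r of 0.94 and those of Klk5 and Klk7 of 0.93, on log2 of the level plus 1. For Klk10 r lay between 0.27 and 0.48 with the other members, and for Klk6 between 0.37 and 0.69. The points share libraries and kits, so these values describe the pattern only. Of the genes outside the family, Gsdma (0.97), Blmh (0.95) and Asprv1 (0.94) had the patterns most like Klk5, and Cltb (0.96), Tmem40 (0.95) and Teddm3 (0.94) those most like Klk8. Blmh (0.94) was also most like Klk7, with Gm11992 (0.94) and Desi1 (0.92). Tuba4a (0.96), Sfn (0.95) and Fam129b (0.94) were most like Klk13, and Bnipl (0.94), Trim29 (0.93) and Rabep2 (0.92) most like Klk11. For Klk10 the highest values were lower, at 0.79 for Hyal2 and 0.77 for Rps29 and Rps27. Klk6 held too few UMIs for this comparison.

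Immune cells held Klk8 at 34.2 to 124 CPM, and no other member above 3.02. Immune cells with at least 10 UMIs of Cpa3, Kit, Mcpt4, Cma1 and Tpsb2, genes known from mast cells, were picked after the values were seen. Klk8 was at 151 and 167 CPM in those of the E15.5 controls and 148 and 139 in MOF cKO, at 190 and 153 against 127 and 149 at E16.5, and at 91.0 and 54.3 in the E17.5 control and QPC cKO. No other member was above 5.14 there. Immune cells with at least 10 UMIs of C1qa, C1qb, Mrc1 and Csf1r, genes known from macrophages, had Klk8 at 2.3 to 9.6, where the fibroblast gate had 1.3 to 3.0.

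These cells lie outside the selection, so the groups were compared by exact permutation, two-sided, with labels exchanged inside each stage and both stages counted in a single test. In the cells with mast cell genes Klk8 was lower by 24.9 CPM in MOF cKO (exact permutation p = 0.0556, the smallest that 36 arrangements can give, and 0.111 after adjustment over 4 comparisons). In all immune cells the difference was −37.9 (p = 0.0556, adjusted 0.111, exact permutation). Both MOF cKO libraries lay below both controls at each stage. How many of all genes did so in these cells was not computed, so nothing is read from it. In the epidermal gates 21.8 to 51.5% of all genes tested were lower without overlap. The cells with mast cell genes made up 356 of 596 and 324 of 493 immune cells in the E15.5 controls and 312 of 710 and 374 of 762 in MOF cKO. At E16.5 they made up 35 of 64 and 53 of 115 in control and 27 of 106 and 53 of 147 in MOF cKO. The part of these shares in the difference over all immune cells was not tested. In fibroblast-gated cells the difference over both stages was −0.04 (exact permutation p = 0.944). It joined opposite differences, 2.90 in control against 1.87 in MOF cKO at E15.5 and 1.35 against 2.30 at E16.5, with no overlap at either stage (exact permutation p = 0.333 each, the smallest that 6 arrangements can give). The share of all genes apart in fibroblast-gated cells was not computed either. At E15.5 Klk7, Klk10, Klk11 and Klk13 were also lower there without overlap, and no member was higher without it.

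**Figure D5:**
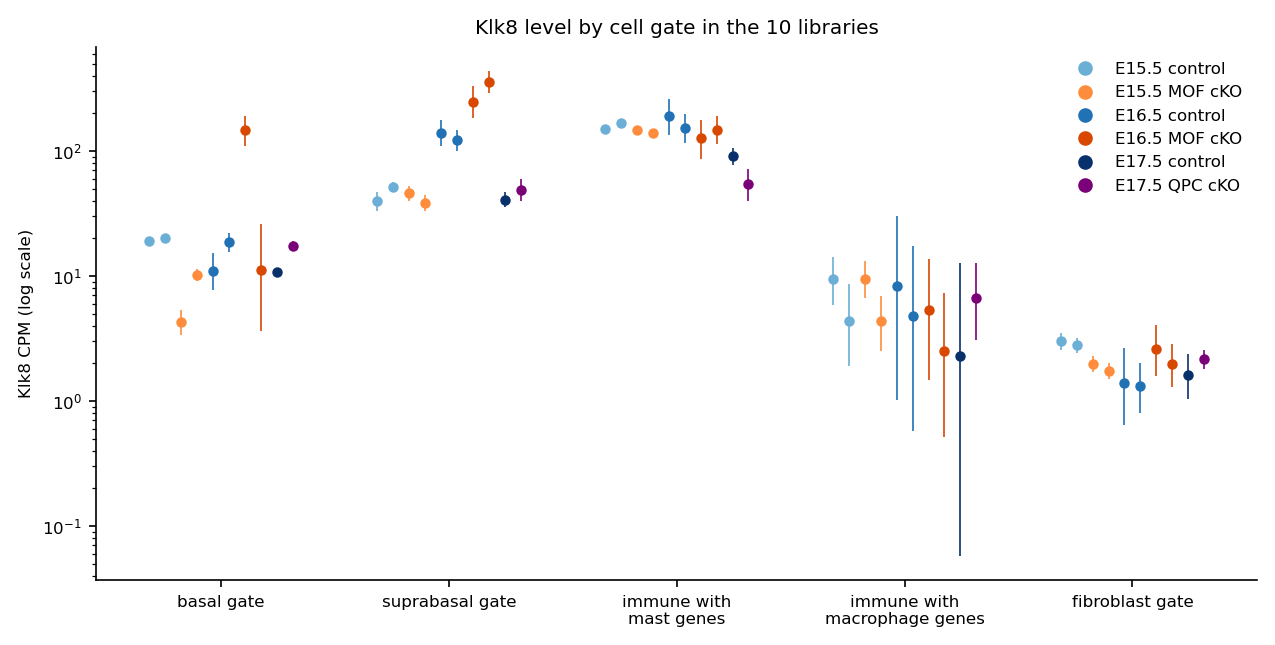
Klk8 level in CPM (log scale), with exact 95% Poisson intervals, in each library for basal, suprabasal and fibroblast-gated cells and for immune cells with mast cell or macrophage genes. The mast-gene cells lie between 54.3 and 190 in all libraries, above every basal value except that of E16.5 MOF cKO 1.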

How the data were processed

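RNA was counted in single cells of mouse back skin with the 10x Genomics 3′ kits. The deposited values are UMI counts per gene and cell barcode, made by the authors with Cell Ranger on mm10; the submitters' processing notes name versions 1.3.1 and 6.1.2. No column was left unused (0). UMIs were summed per library over gated cells and divided by all UMIs of those cells (CPM, per 1000000). No doublet caller was run. Summed counts were fitted per stage and gate, 2 libraries against 2, with the edgeR quasi-likelihood test (version 4.0.16, R 4.3.3, filterByExpr, TMM), at an adjusted p under 0.05 over all genes. The fit was also run on simulated counts whose spread between libraries was fixed beforehand. That run does not show how the fit does at the spread of these libraries. Alternatives were DESeq2 1.42.0, other gates, scalings, filters and pseudocounts, and leaving out each library. The members, lists and limits were chosen with earlier results of these data known. All members and the genes of the 3 lists could be named, other kallikreins with at least 20 UMIs, and for each member with at least 100 UMIs the 3 genes of highest r among 7099 with 20 CPM in 3 points. At E16.5 the deviations of libraries with the same replicate number from their group means had correlations of −0.08 (basal) and −0.04 (suprabasal). With so few MOF cKO cells these cannot decide whether the numbers pair. The upper limit for a gene with no UMI was set at 3 UMIs per group.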

Additional observations from a re-analysis of the deposited data

Results flagged for a closer look

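Klk13 lay below the controls at E15.5 and above them at E16.5 in MOF cKO. Its log2 ratio of mean CPM, with a pseudocount of 1, was −0.57 in basal and −1.20 in suprabasal cells at E15.5, and 2.60 and 1.88 at E16.5. The pseudocount shrinks the basal ratios, whose means were 0.68 against 0.13 CPM at E15.5 and 1.19 against 12.2 at E16.5. For E15.5 basal cells the edgeR fit gave −2.02. At each stage and in each gate every MOF cKO library lay on one side of both controls. At E16.5 this rested on single cells. Without the cell with the most Klk13 UMIs of each library, the suprabasal levels were 27.5 and 52.1 CPM in control against 135 and 49.6, and the basal ones 0.90 and 1.04 against 14.8 and 0, so that the groups overlapped in both. The basal level of MOF cKO 2 was 1 UMI, and Klk13 was under the filter on low counts there. The difference between the stages was not tested, stage and kit cannot be told apart, and the E15.5 basal levels were under 1 CPM in all 4 libraries.

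Klk8 was read outside the cells for which the members were chosen. In immune cells with at least 10 UMIs of mast cell genes it lay between 54.3 CPM, in E17.5 QPC cKO, and 190, in E16.5 control 1, above the 1.3 to 3.0 of fibroblast-gated cells in the same libraries.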

How the results depend on the processing

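Of 472 recomputed log2 ratios of single members (38 reported), 53 changed sign, 20 of them when a library was left out. For 6 of the 53 the groups, or at E17.5 the counting interval and 0, lay apart in the reported value. Leaving out MOF cKO replicate 1 at E16.5 turned Klk8 in basal cells from 2.34 to −0.36, Klk10 in basal cells from 0.11 to −0.78 and Klk7 in suprabasal cells from 1.298 to −0.96. The log2 ratio of the summed members in E17.5 basal cells (0.91) became 0.13 with collagen under 10 UMIs per cell, 0.21 with collagen under 0.2% of UMIs, 0.12 with doubled keratin limits, 0.15 with keratin limits per 10000 UMIs, 1.42 with under 5% mitochondrial UMIs and 0.80 with a pseudocount of 10. Under 5% mitochondrial UMIs the E17.5 suprabasal ratios of the sum, Klk5 and Klk7 became −0.080, −0.53 and −2.46, and Klk7 was at −0.11 with no upper limit on genes. The E16.5 suprabasal ratio of Klk10 became −5.76 with collagen under 10 UMIs, −0.13 as a mean over cells and −0.21 without the top cell. Leaving out a library gave the summed ratio −0.98 to −0.50 in E15.5 basal, −0.25 to 0.06 in E15.5 suprabasal, −0.81 to 1.88 in E16.5 basal and 0.48 to 1.74 in E16.5 suprabasal cells. At E16.5 the basal value was negative without MOF cKO replicate 1, and the suprabasal one lowest without it.

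Genes called at E15.5 (0 by edgeR) numbered 120 in basal and 49 in suprabasal cells by DESeq2 and 2 and 525 with no filter, and 0 to 7519 and 0 to 1762 when a library was left out, most without MOF cKO replicate 6. In E16.5 basal cells 23 became 307 by DESeq2, 991 with no filter, 14 with library totals, 0 with collagen under 10 UMIs, 96 with collagen under 0.2%, and 0 to 434 without a library. In E16.5 suprabasal cells 172 became 636 with no filter, 262 with library totals, 364 with collagen under 10 UMIs, and 30 (without MOF cKO replicate 1) to 248 without a library, with 114 without replicate 2. With the replicate number as a block at E16.5, 52 genes were called in basal and 88 in suprabasal cells, and the summed log2 fold change was 1.25 and 1.62. A group left with 1 library was assumed to vary like the other. The collagen share, the absent upper limit on genes and the top cell were chosen after seeing the data. Of the tested genes named, Cdsn kept its edgeR call except without either MOF cKO library and with collagen under 10 UMIs (log2 fold change −1.04, adjusted p 0.291), and none of the 6 genes changed direction. In the edgeR test Dsg1b in E16.5 suprabasal cells gained a call with library totals (adjusted p 0.0429), with no filter (2.4e-07) and without control 1 (0.000545), control 2 (0.00219) or MOF cKO 2 (0.0170). With no filter so did F2rl1 in E16.5 basal (0.0216), Serpina12 in E16.5 suprabasal (0.0410) and Spink5 in E15.5 suprabasal cells (5.8e-25, against 0.423 by DESeq2). The cause of these changes was not tested. The E16.5 MOF cKO libraries held 9 to 22 cells per gate. With collagen under 10 UMIs per cell they held 9 and 6 basal and 4 and 7 suprabasal cells.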
